A study of Mus musculus with 4 samples.

Results

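The 9 genes described here encode proneural basic helix-loop-helix (bHLH) transcription factors and their relatives: Neurog1, Neurog2, Neurog3, Atoh1, Neurod1, Neurod2, Neurod4, Neurod6 and Bhlhe22. They were taken by gene symbol out of 24971 genes, and each level is the count summed over the RefSeq accessions of a symbol and scaled to the library total and given as CPM. The tissue was E12.5 mouse neural tube (C57BL/6 background), sequenced as 2 libraries labelled Lbx1Δ/Δ and 2 labelled WT. Each library was a pool of tubes of the same genotype from a litter, and the labels number the pools 1 and 2 within each genotype. The sources used here give neither the number of embryos in a pool nor the part of Lbx1 that was deleted, and they do not say that pools of equal number shared a litter, a day or a batch.

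Proneural bHLH factors pair with widely expressed E proteins and bind the E-box, a short DNA motif, to start neuronal differentiation. Neurog1, Neurog2 and Atoh1 act in dividing progenitors and in cells that are leaving the cycle, where they also switch on Notch ligands that hold neighbouring cells back. Neurod1, Neurod4, Neurod2 and Neurod6 act later in the cascade, in newly born and maturing neurons, and Bhlhe22 is a related repressor of postmitotic neurons. Neurog1, Neurog2, Neurog3 and Atoh1 are called progenitor-stage below, and Neurod1, Neurod2, Neurod4, Neurod6 and Bhlhe22 postmitotic, although Neurod4 and Neurod1 start in cells between the stages.

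Promoter windows from RefSeq (assembly GRCm38.p6), 250 bases before to 50 after the annotated start, were matched by symbol for 8 of the 9 genes, all but Bhlhe22. The windows of Neurod6 and Neurod2 are shown because these genes differed most between the pools, and those of Atoh1 and Neurog2 because they are progenitor-stage genes that did not move with them. Each runs 5′ to 3′ on the gene's strand, and capitals mark every match to the E-box CANNTG, which reads the same on both strands.
Neurod6, chr6:55681214-55681513, minus strand: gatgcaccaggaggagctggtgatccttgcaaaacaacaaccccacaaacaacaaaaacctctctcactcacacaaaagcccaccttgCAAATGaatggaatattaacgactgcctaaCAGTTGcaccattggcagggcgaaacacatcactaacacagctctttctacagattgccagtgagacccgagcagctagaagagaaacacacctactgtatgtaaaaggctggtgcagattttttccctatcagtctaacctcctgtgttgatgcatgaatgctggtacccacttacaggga
Neurod2, chr11:98329596-98329895, minus strand: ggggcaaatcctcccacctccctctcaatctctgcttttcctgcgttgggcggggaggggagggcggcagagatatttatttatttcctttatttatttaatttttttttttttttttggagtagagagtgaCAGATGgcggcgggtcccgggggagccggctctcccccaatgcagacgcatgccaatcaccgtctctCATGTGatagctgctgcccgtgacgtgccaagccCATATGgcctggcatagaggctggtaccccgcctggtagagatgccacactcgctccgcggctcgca
Atoh1, chr6:64728875-64729174, plus strand: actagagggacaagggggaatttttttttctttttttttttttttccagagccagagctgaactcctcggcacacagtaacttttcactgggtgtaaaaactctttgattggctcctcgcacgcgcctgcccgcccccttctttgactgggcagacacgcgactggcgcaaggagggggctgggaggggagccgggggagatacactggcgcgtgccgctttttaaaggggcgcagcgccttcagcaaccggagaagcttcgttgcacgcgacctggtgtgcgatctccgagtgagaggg
Neurog2, chr3:127632886-127633185, plus strand: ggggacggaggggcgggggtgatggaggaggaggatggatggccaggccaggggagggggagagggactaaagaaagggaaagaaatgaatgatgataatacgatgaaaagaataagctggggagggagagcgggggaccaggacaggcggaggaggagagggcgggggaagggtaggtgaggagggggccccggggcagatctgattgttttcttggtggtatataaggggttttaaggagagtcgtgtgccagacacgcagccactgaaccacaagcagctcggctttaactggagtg
The Neurod2 window held 3 matches, CAGATG at −118, CATGTG at −51 and CATATG at −17, with positions counted to the first base of the match. The Neurod6 window held 2, CAAATG at −162 and CAGTTG at −132, while the Atoh1 and Neurog2 windows held 0. The windows not shown held 1 match each for Neurog1 (CACTTG at 5), Neurog3 (CAGCTG at −165) and Neurod1 (CATATG at −242). Neurod4 had 2 windows, of which 1 held 1 match (CAGCTG at 5) and the other 0. Presence of the motif thus did not separate the stages. At least 1 match was present in 72.3% of 32544 promoter windows of this length and at least 3 in 17.6%, so the motif is common, and a match does not show that a factor binds there. CAGATG, counted together with its reverse complement CATCTG, was in 17.1% of the windows.

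Total counts were 17250143 and 16853984 in the Lbx1Δ/Δ pools 1 and 2 and 20579803 and 16948717 in the WT pools. Progenitor genes (Sox2 at 255 to 300.2 CPM) and neuronal genes (Tubb3 at 1766 to 3748 CPM) were abundant in every pool. Lbx1 itself did not check the genotype label, since it had 1946 and 6520 counts in the pools labelled Lbx1Δ/Δ, against 819 and 1379 in the WT pools, and directions below are between libraries as labelled.

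Of the 9 genes, 8 had at least 12 counts in every library and entered the test. Neurod4, which supports neurogenesis next to Neurog1 and Neurog2, was listed at 0 in all 4 libraries for each of its 3 accessions, and no level is given for it. The files were counted per transcript. Of genes with 3 or more accessions 38.7% were at 0 in all libraries, against 39.2% of those with 2 and 30.2% of those with 1. Of 163 other listed genes 26 were at 0 throughout, 22 of them with several accessions, among them Pax6, a neural progenitor gene, and Mcm5, a replication gene of dividing cells. The other 8 genes have 1 accession each. The E-protein partners Tcf3, Tcf4 and Tcf12 have several, so their low values (0 to 4.54 CPM) are uncertain.

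**Figure D1:**
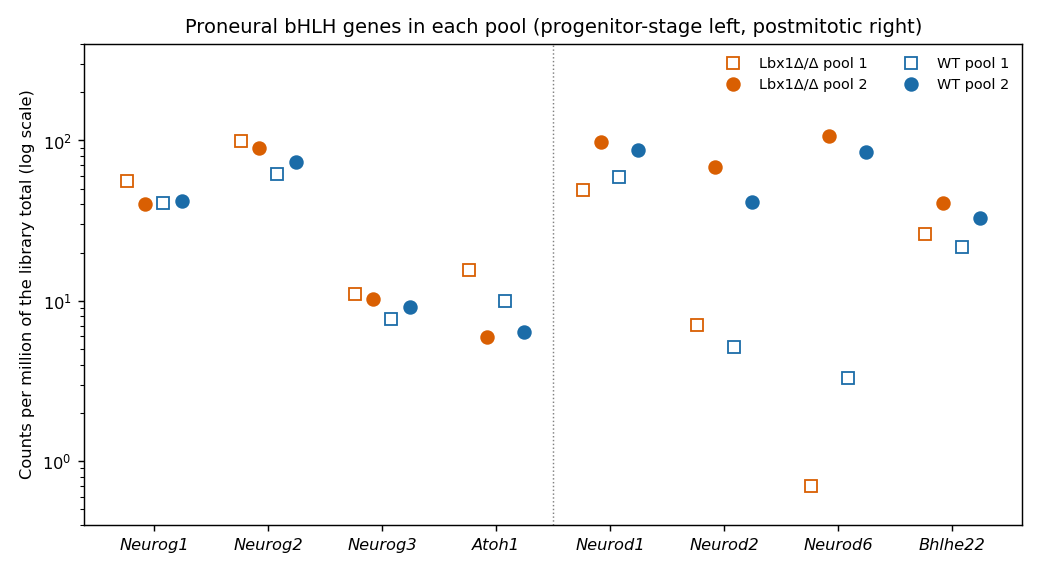
Level of each of the 8 counted genes in each of the 4 pools, in CPM on a log axis. Orange marks Lbx1Δ/Δ and blue WT, open squares pools numbered 1 and filled circles pools numbered 2. Neurod2 and Neurod6 split by number, and the neurogenins do not.

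Per kilobase of transcript, Neurod6 was the most abundant of the genes in both pools numbered 2 and the least abundant in both pools numbered 1. In the number 2 pools it reached 49.95 CPM per kilobase in Lbx1Δ/Δ and 39.4 in WT, against 0.324 and 1.54 in the number 1 pools of Lbx1Δ/Δ and WT. Neurog2 was the second most abundant in the number 2 pools, with 40.4 and 33.0 CPM per kilobase in Lbx1Δ/Δ and WT, and the most abundant in the number 1 pools, with 44.5 and 27.6. Neurod1 (35.9 and 32.0 in number 2, 18.01 and 21.7 in number 1) and Neurog1 (23.7 and 24.7 in number 2, 33.0 and 24.1 in number 1) came next, each time with Lbx1Δ/Δ given before WT. The order of Neurog1 and Neurod1 thus turned between the numbers. Neurod2 stood between Neurog1 and Bhlhe22 in the number 2 pools (13.1 to 21.7 CPM per kilobase, against 9.86 to 12.3 for Bhlhe22). Neurog3 (4.99 to 7.19) and Atoh1 (2.80 to 7.32) were low in all pools, and their ranges overlapped.

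The 4 counted postmitotic genes together outweighed the progenitor-stage genes in the number 2 pools only. Neurod4 entered these sums at 0, so they leave out any level it may have had. Among the counts of all 9 genes, postmitotic genes held 68.3% (95% Wilson interval 67.2% to 69.3%) in Lbx1Δ/Δ pool 2 and 65.3% (64.1% to 66.5%) in WT pool 2. They held 31.4% (30.0% to 32.7%) in Lbx1Δ/Δ pool 1 and 42.7% (41.2% to 44.2%) in WT pool 1. These intervals cover counting error only. Neurod2 and Neurod6 made up 55.8% and 51.1% of the postmitotic counts in the number 2 pools of Lbx1Δ/Δ and WT, against 9.30% and 9.48% in the number 1 pools. Without them, the summed level of the postmitotic genes over that of the progenitor-stage genes was still higher in number 2, at 0.951 in Lbx1Δ/Δ and 0.920 in WT, against 0.415 and 0.675 in number 1.

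Tested across all genes, all 4 counted postmitotic genes rose in the pools numbered 2, Atoh1 fell, and the 3 neurogenins did not pass the test. The background is large, because 25.5% of 10757 tested genes were called between the numbers (edgeR quasi-likelihood test, Benjamini-Hochberg adjusted p below 0.05), 13.3% higher and 12.2% lower in number 2. Since the labels give the number no meaning, the p-values describe these 4 libraries. In pools of tissue, fewer cells of a type and less RNA per cell cannot be told apart.

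Neurod6, a factor of maturing neurons best known in the cerebral cortex, had 1810 and 1436 counts in the number 2 pools of Lbx1Δ/Δ and WT, against 12 and 68 in the number 1 pools. The groups were far apart, at 107 and 84.7 CPM against 0.696 and 3.30 CPM. Its fitted log2 difference of 5.51 (SE 0.42, edgeR adjusted p = 0.00019) was the highest of all 10757 tested genes and the 1 value above 5 (0.0093%). Neurod2, which acts in the same neurons of the cortex, had 68.1 and 41.1 CPM in the number 2 pools of Lbx1Δ/Δ and WT, against 7.01 and 5.15 CPM in the number 1 pools. Its log2 difference of 3.15 (SE 0.26, edgeR adjusted p = 0.000223) was the 11th highest, and 12 genes (0.112%) lay above 3. Both genes differed in the same direction within each label, by 7.21 and 3.27 on the log2 scale within Lbx1Δ/Δ and by 4.67 and 2.99 within WT.

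Neurod1, a factor of newly born neurons, was at 98.1 and 87.4 CPM in the number 2 pools of Lbx1Δ/Δ and WT, against 49.2 and 59.1 CPM in the number 1 pools, a log2 difference of 0.76 (SE 0.13, edgeR adjusted p = 0.00302). Bhlhe22, which dorsal inhibitory interneurons need, was at 41.0 and 33.0 CPM in number 2, against 26.0 and 21.6 CPM in number 1, a log2 difference of 0.62 (SE 0.17, edgeR adjusted p = 0.0272). The groups did not overlap for either gene, which held for 34.1% of all tested genes in this direction. The call of Bhlhe22 was lost without WT pool 1 (log2 0.49, edgeR adjusted p = 0.179) and without Lbx1Δ/Δ pool 2 (log2 0.46, edgeR adjusted p = 0.0892).

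Atoh1, the factor of the dorsalmost progenitors, which give rise to dI1 interneurons, went the other way. It had 100 and 108 counts in the number 2 pools of Lbx1Δ/Δ and WT, against 268 and 204 in the number 1 pools, or 5.93 and 6.37 CPM against 15.5 and 9.91 CPM. The log2 difference was −1.06 (SE 0.26, edgeR adjusted p = 0.0158), and both number 2 pools lay below both number 1 pools, which held for 31.9% of tested genes. Without Lbx1Δ/Δ pool 1 the call was lost (log2 −0.71, edgeR adjusted p = 0.177).

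Neurog2, the neurogenin with the highest level, had 89.9 and 73.5 CPM in the number 2 pools of Lbx1Δ/Δ and WT, against 99.1 and 61.5 CPM in the number 1 pools (log2 0.0073, SE 0.20). Neurog1, which works beside it in progenitors and in sensory neuroblasts, had 40.0 and 41.7 CPM in number 2, against 55.6 and 40.6 CPM in number 1 (log2 −0.25, SE 0.17). Neurog3, best known from endocrine cells of the pancreas, had 10.3 and 9.20 CPM in number 2, against 11.1 and 7.68 CPM in number 1 (log2 0.043, SE 0.24). The number groups overlapped for all 3 genes. The 3 edgeR adjusted p-values were 0.983, 0.315 and 0.922, and each gene was lower in number 2 within Lbx1Δ/Δ and higher within WT. Of the pancreas and gut genes listed, Pdx1 and Ins1, with 1 accession each, were at 0 in all pools.

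**Figure D2:**
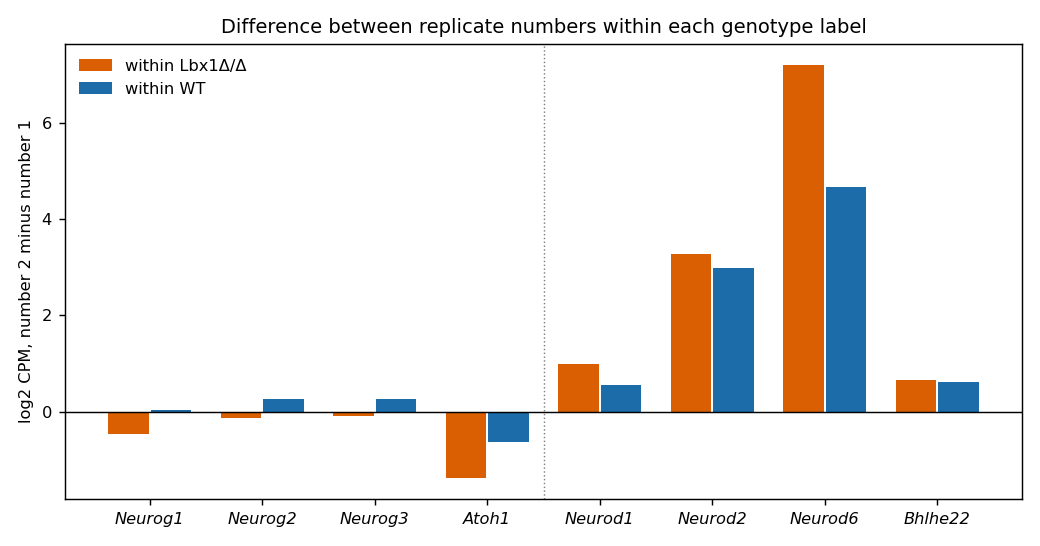
Difference in log2 CPM (0.5 counts added) between pools numbered 2 and 1, for each gene within Lbx1Δ/Δ (orange) and within WT (blue). The postmitotic genes, right of the dotted line, lie above 0 in both labels, up to 7.21 for Neurod6, and Atoh1 lies below 0 in both.

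Other genes of neuronal differentiation moved with the postmitotic factors. All 8 tested neuronal genes rose in number 2, with a median log2 difference of 0.91 (0.00021 over all tested genes). Ina, a neurofilament protein, was at 2558 and 2396 CPM in the number 2 pools of Lbx1Δ/Δ and WT, against 1268 and 1143 CPM in the number 1 pools. All 7 tested genes of proliferation fell, with a median of −0.81. Top2a, a topoisomerase of dividing cells, was at 583 and 794 CPM in number 2, against 1259 and 1226 CPM in number 1. Of the 10 tested genes of neural progenitors, 1 rose and 3 fell, with a median of 0.051.

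Among 10 other tested bHLH activators 4 rose and 1 fell in number 2, with a median log2 difference of 0.32. Nhlh1, a factor of newly born neurons, was at 280 and 190 CPM in the number 2 pools of Lbx1Δ/Δ and WT, against 148 and 129 CPM in the number 1 pools (log2 0.75, edgeR adjusted p = 0.00828). Of 11 tested targets of proneural factors, 5 rose and 0 fell, with a median of 0.34. The Notch ligand Dll1 had a log2 difference of 0.29 (edgeR adjusted p = 0.0956), and Srrm4, a splicing regulator of neurons, one of 0.78 (edgeR adjusted p = 0.00237). The count of 5 was 2 without WT pool 1, 2 without Lbx1Δ/Δ pool 2 and 8 without WT pool 2.

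Of 9 tested genes of the Id and Hes families, which inhibit bHLH factors, Id4 rose, Id2 and Id3 fell and the other 6 did not pass the test. The list median was −0.024, and of all tested genes 13.3% were called higher and 12.2% lower in number 2. Id3, which binds E proteins and keeps them from DNA, was at 162 and 175 CPM in the number 2 pools of Lbx1Δ/Δ and WT, against 285 and 275 CPM in the number 1 pools (log2 −0.75, edgeR adjusted p = 0.001004). Id4, of the same family, was at 165 and 170 CPM in number 2, against 91.7 and 90.1 CPM in number 1 (log2 0.86, edgeR adjusted p = 0.000527). Of the 7 tested genes of the Atoh1 lineage list, 1 rose, namely Pou4f1, which sensory neurons also express, and 0 fell, with a median of 0.38 against −1.06 for Atoh1 itself.

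Genes of other tissues also differed between the numbers, and their part in the members' differences was not tested. Of 10 tested genes of sensory ganglia 6 rose and 1 fell, and the list summed to 932 and 832 CPM in the number 2 pools of Lbx1Δ/Δ and WT, against 562 and 568 CPM in the number 1 pools. Its members Prph and Runx1, with several accessions each, were at 0. Skeletal muscle genes summed to 132 and 417 CPM in number 2, against 750.02 and 879 CPM in number 1, and 5 of 7 tested fell. All 4 tested red blood cell genes fell, and the list summed to 2557 and 2754 CPM in number 2, against 5813 and 8126 CPM in number 1. Of 5 tested surface ectoderm genes 3 fell, and of 9 tested genes of mesenchyme and cartilage 3 fell.

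Neurod2 and Neurod6 are best known in the forebrain, and the part of forebrain tissue in their differences was not tested. Of the 9 genes on the forebrain and midbrain list, only 1 (Emx2) passed the filter, and 2 were at 0 in all pools. The list's single-accession genes Emx1, Tbr1, Otx1 and Fezf2 were at or near 0, from 0 to 1.12 CPM in the number 2 pools and from 0 to 1.17 CPM in the number 1 pools. Tbr1, a factor of cortical glutamatergic neurons, was at 0.119 and 1.12 CPM in the number 2 pools of Lbx1Δ/Δ and WT, against 0.464 and 0.389 CPM in the number 1 pools. Emx2 was lower in number 2, at 0.356 and 2.01 CPM, against 19.3 and 25.2 CPM in number 1 (log2 −4.24, edgeR adjusted p = 0.000514). The whole list summed to 0.771 and 3.13 CPM in number 2, against 20.4 and 27.3 CPM in number 1. Most of each number 1 sum was Emx2 alone. Of the 5 genes on the hindbrain and cerebellum list, 1 was at 0 in all pools, and Gbx2 and Pax5 passed the filter. Both rose in number 2 (log2 1.09 and 0.96). Their expression elsewhere in the neural tube was not examined, so the rise is not assigned to a region. Whether these genes bear on the members' differences was not tested.

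**Figure D3:**
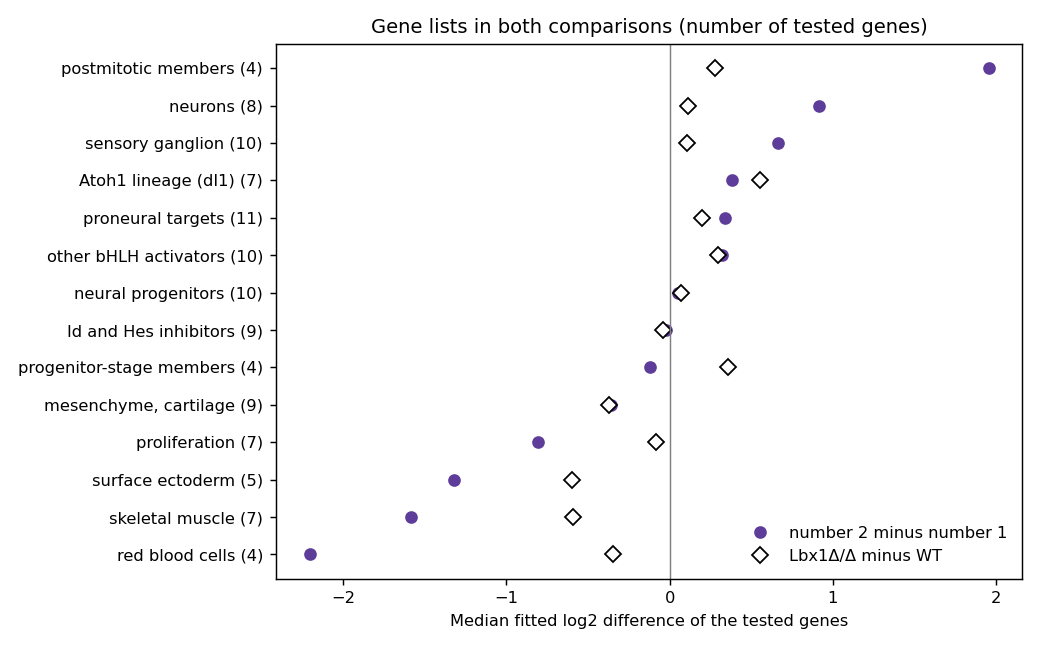
Median fitted log2 difference of the tested genes of 14 lists, with their number in brackets, for number 2 minus number 1 (filled circles) and Lbx1Δ/Δ minus WT (open diamonds). Among the lists drawn, the number medians run from −2.21 for red blood cell genes to 1.95 for the postmitotic members, while those by genotype lie within −0.60 and 0.55.

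By genotype label, all 8 counted genes, progenitor-stage and postmitotic alike, had higher mean CPM in the Lbx1Δ/Δ pools, but none passed the test. The fitted difference was above 0 for 4 progenitor-stage and 3 postmitotic genes, and for 5322 of all 10757 tested genes. For Neurod1 the means were 73.6 ± 34.6 CPM in Lbx1Δ/Δ and 73.3 ± 19.97 CPM in WT (SD, n = 2 each). Over all 10757 genes 0 (0.0%) passed in edgeR, with 55 at an unadjusted p below 0.05, and DESeq2 and limma-voom also called 0, with 33 and 61 at that level. Neurog2 averaged 94.5 ± 6.49 CPM in Lbx1Δ/Δ and 67.5 ± 8.48 CPM in WT (SD, n = 2 each). Its log2 difference was 0.47 (SE 0.18, edgeR unadjusted p = 0.0489, adjusted p = 0.9998), and both Lbx1Δ/Δ pools lay above both WT pools. Neurog3 averaged 10.7 ± 0.529 CPM in Lbx1Δ/Δ and 8.44 ± 1.08 CPM in WT (SD, n = 2 each), with a log2 difference of 0.33 (SE 0.27) and no overlap either. Groups did not overlap in this direction for 11.3% of tested genes and in the other for 9.31%, against 2 and 0 of the 8 counted members.

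Neurog1 averaged 47.8 ± 11.03 CPM in Lbx1Δ/Δ and 41.1 ± 0.806 CPM in WT (SD, n = 2 each), a log2 difference of 0.21 (SE 0.24). Atoh1 averaged 10.7 ± 6.79 CPM in Lbx1Δ/Δ and 8.14 ± 2.50 CPM in WT (SD, n = 2 each), a log2 difference of 0.39 (SE 0.56). For both genes the higher Lbx1Δ/Δ mean rested on pool 1, because within number 2 the log2 difference was −0.061 for Neurog1 and −0.10 for Atoh1, against 0.45 and 0.65 within number 1. Without Lbx1Δ/Δ pool 1 the fitted differences were −0.069 and −0.49. Neurog2 was higher within both numbers, by 0.29 in number 2 and 0.69 in number 1, and Neurog3 by 0.17 and 0.53.

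Each of the 4 counted postmitotic genes had a smaller fitted difference by genotype than by number, and its SD within a label includes the difference between numbers. Neurod2 averaged 37.6 ± 43.2 CPM in Lbx1Δ/Δ and 23.1 ± 25.4 CPM in WT (SD, n = 2 each), a log2 difference of 0.68 (SE 1.33). Neurod6 averaged 54.0 ± 75.4 CPM in Lbx1Δ/Δ and 44.0 ± 57.6 CPM in WT (SD, n = 2 each), a log2 difference of 0.27 (SE 2.13). Within number, Neurod2 was higher in Lbx1Δ/Δ both times, by 0.73 in number 2 and 0.44 in number 1, while Neurod6 differed by 0.34 in number 2 and −2.20 in number 1. Bhlhe22 was higher within both numbers, by 0.31 in number 2 and 0.27 in number 1, with a fitted difference of 0.28 (SE 0.34). Neurod1 had a fitted difference of −0.0099 (SE 0.39), with 0.17 within number 2 and −0.27 within number 1. Thus 4 of 8 counted members were higher in Lbx1Δ/Δ within both numbers, against 30.3% of all tested genes.

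**Figure D4:**
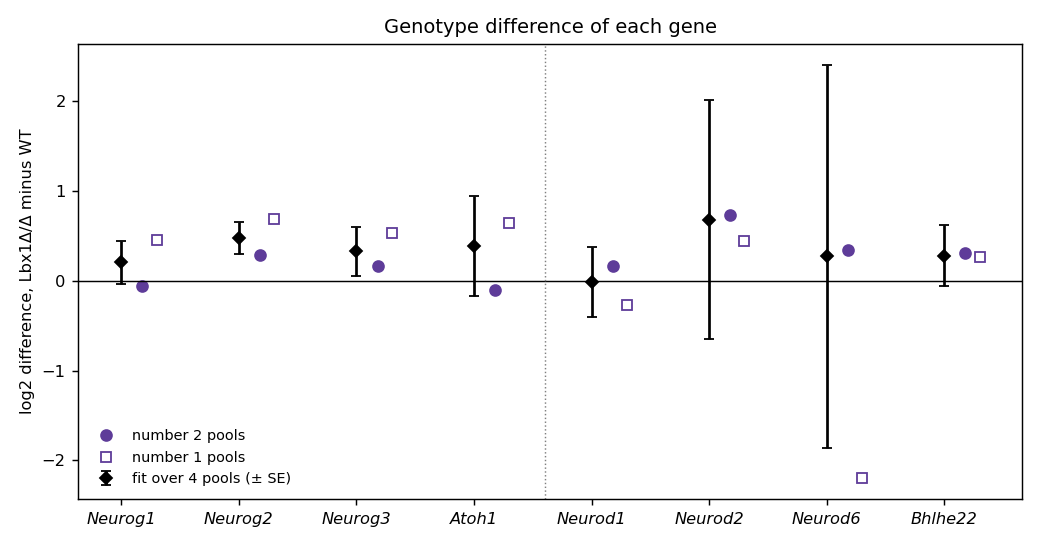
Log2 difference between Lbx1Δ/Δ and WT for each gene, from the edgeR fit over 4 pools (diamonds, bars ± SE) and within pools numbered 2 (filled circles) and 1 (open squares). The fitted values lie between −0.0099 for Neurod1 and 0.68 for Neurod2, and the SE of Neurod6 is 2.13.

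The lists around these genes gave 0 calls in the fit on genotype alone. With the replicate number as a block, 1 neuronal gene (Map2) was called higher, and Lum, Myh3 and Krt5, 1 each of the mesenchyme, muscle and ectoderm lists, were called lower. The median log2 difference was 0.30 over 10 other bHLH activators, 0.20 over 11 proneural targets, 0.55 over 7 Atoh1 lineage genes, 0.11 over 8 neuronal genes and −0.038 over 9 Id and Hes genes, against −0.0026 over all tested genes. These medians moved when single pools were left out, though those of the other bHLH activators and the Atoh1 lineage stayed above 0. Medians with the replicate number as a block were 0.30, 0.18, 0.52, 0.12 and −0.044, in the same order. With each pool left out in turn they ran from 0.052 to 0.50 for the other bHLH activators, −0.091 to 0.38 for the proneural targets, 0.11 to 0.84 for the Atoh1 lineage, −0.36 to 0.69 for the neuronal genes and −0.17 to 0.13 for the Id and Hes genes. The medians were −0.37 for mesenchyme and cartilage, −0.59 for skeletal muscle and −0.60 for surface ectoderm, against 0.10 for sensory ganglia and 0.098 for neural crest. Without Lbx1Δ/Δ pool 2 the medians of muscle and ectoderm were 0.16 and 0.051. Without WT pool 1 those of ectoderm and of mesenchyme were 0.12 and −0.068, and that of muscle was −0.052. Mesenchyme and cartilage genes summed to 4565 and 4299 CPM in the Lbx1Δ/Δ pools 1 and 2, against 6434 and 4835 CPM in the WT pools, and their part in the members' values was not tested.

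Among the members, the patterns over the 4 pools were most alike for Neurog2 and Neurog3, with a root mean square difference of 0.073 between their centred log2 levels, and least alike for Atoh1 and Neurod6, at 3.62. Among 8766 other tested genes with an average log2 CPM above 1, the closest to Neurog2 was Hddc3 (0.046), to Neurog1 Sem1 (0.034), to Neurog3 Mtln (0.022) and to Atoh1 Arl2bp (0.087). Rgs9 was closest to Neurod1 (0.021), Tmem150a to Bhlhe22 (0.017) and Sfrp5 to Neurod2 (0.31). No gene came near Neurod6, where the closest was the bHLH gene Olig1 (1.21), at 11.9 and 7.55 CPM in the number 2 pools of Lbx1Δ/Δ and WT, against 0.522 and 0.486 CPM in the number 1 pools. With only 4 libraries, many genes share such a pattern.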

How the data were processed

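RNA was sequenced from 4 pools of neural tubes. The authors deposited raw counts of reads per RefSeq transcript for 41411 accessions, not normalized, as the whole numbers in the files show. TopHat2 2.1.1, featureCounts and edgeR with build mm9 were used, per the submitters' processing notes. Which annotation, strand setting and rule for shared reads applied is not given in the sources used here.

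Symbols came from a RefSeq gene table of GRCm38 (41218 accessions) and a GENCODE M21 table (97), and 96 accessions stayed unnamed and were kept as genes of their own. Counts were summed per symbol. CPM are relative to the total count, and log2 CPM had 0.5 counts added. Levels per kilobase used GENCODE transcript lengths. filterByExpr by genotype at its defaults (minimum count 10, minimum total 15) kept 10757 genes. With edgeR 4.0.16 (R 4.3.3), TMM factors and the quasi-likelihood test of glmQLFTest were used for genotype, and in a separate fit replicate number, two-sided, with Benjamini-Hochberg adjustment over all tested genes at 0.05. SE is the log2 difference over the root of F. Members, lists and tests were chosen with earlier results of these data known. The genes named were all members, Lbx1, up to 4 abundant genes per list and the closest patterns. Sox2, Emx1, Fezf2, Map2, Lum, Krt5 and the genes named as listed at 0 were chosen after their values were seen. Some listed genes are not reported here. Nothing says which pools came from separate litters across genotypes, so p-values set differences against the spread between these pools only. The tests were tried on counts simulated with the spread left after genotype and number were both fitted. That spread leaves out the difference between numbers, which the genotype fit carries. Alternatives were RLE, upper-quartile and plain library scaling, DESeq2 1.42.0, limma-voom (limma 3.58.1), other filters, the most abundant accession per symbol, each fit with the other factor added, and leaving out each pool, with the tested genes kept. The intervals and floors cover counting error only.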

Additional observations from a re-analysis of the deposited data

Results flagged for a closer look

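The Lbx1Δ/Δ minus WT difference had opposite signs within the replicate numbers for 4 genes. These differences between numbers rest on 1 pool per label and number and were not tested. For Neurod6 the log2 difference within number 2 exceeded that within number 1 by 2.54 (0.34 against −2.20), with 12 counts in Lbx1Δ/Δ pool 1 and 68 in WT pool 1. For Neurod1 it did so by 0.43 (0.17 against −0.27). For Atoh1 the value was −0.75 (−0.10 within number 2 against 0.65 within number 1), and for Neurog1 it was −0.52 (−0.061 against 0.45).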

How the results depend on the processing

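Between the numbers, the 4 postmitotic genes and Atoh1 kept their direction and their call under all 9 settings that used every pool. The number of genes called was 2739, 2642 to 3833 under those settings, and 1702 to 3870 with a pool left out (1702 without WT pool 1). Each fit without a pool left a group with a single library, so calls kept in it are weak evidence of stability. Neurod1, Neurod2 and Neurod6 kept their direction with any pool left out, while Atoh1 and Bhlhe22 lost the call as described. Without single pools the log2 difference ran from −0.46 to −0.0099 for Neurog1, −0.30 to 0.39 for Neurog2, −0.20 to 0.33 for Neurog3, −1.35 to −0.71 for Atoh1, 0.63 to 0.90 for Neurod1, 2.76 to 3.46 for Neurod2, 4.84 to 7.08 for Neurod6 and 0.46 to 0.75 for Bhlhe22.

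By genotype, 0 genes were called under every setting except the replicate block, that is the replicate number as a block in the fit, which called 92 genes (0.855%) and none of the members. With the block, Neurog2 had a log2 difference of 0.48 (edgeR adjusted p = 0.0518) and Neurod2 one of 0.60 (edgeR adjusted p = 0.093). Lbx1 was among the genes called with the block, higher in Lbx1Δ/Δ (log2 1.88, edgeR adjusted p = 1.19e-06). Pools of equal number deviated together from their genotype means (r = 0.623 across genes, which are not independent replicates), but the labels do not pair them. Neurod6 turned to −0.20 with the replicate block and to −0.84 in limma-voom. Neurod1, near 0 throughout, turned to 0.014 with upper-quartile scaling, 0.0074 with plain library totals and 0.0063 with a filter of CPM above 1 in 2 libraries. The cause of these turns was not tested. Leaving out single pools, the genotype difference ran from −0.069 to 0.44 for Neurog1, −0.49 to 0.93 for Atoh1, −0.57 to 0.39 for Neurod1, −1.71 to 2.84 for Neurod2, −5.96 to 3.997 for Neurod6 and −0.066 to 0.61 for Bhlhe22. Neurog2 (0.35 to 0.60) and Neurog3 (0.21 to 0.46) stayed higher in Lbx1Δ/Δ.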
